A study of Mus musculus with 32 samples.

Results

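Replication-dependent histone genes encode the histones that are made in bulk while DNA is copied. They were taken as the protein-coding genes whose symbols begin with Hist1h, Hist2h, Hist3h or Hist4h, and 67 of the 55573 genes in the deposited tables met this rule. The 67 members comprise 6 linker histone (H1) genes, 18 H2A, 18 H2B, 12 H3 and 13 H4 genes. In the mm10 build, 54 Hist1 members lie on chromosome 13, 10 Hist2 members on chromosome 3, both Hist3 members on chromosome 11 and Hist4h4 on chromosome 6.

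RNA-seq was performed on mouse cells of strain 129S5/SvEvBrd whose Smarce1 gene, encoding the BAF57 subunit of SWI/SNF chromatin remodellers, carries the tag MD or the tag MD(R42A). The groups are called MD and R42A, and every cell line of the study carries one of these tags, so no untagged cells are compared. MD is commonly the mitotic degron, a fragment of cyclin B1 that marks a protein for destruction when cells leave mitosis, and R42A its inactive form; the labels do not spell this out. Neural cultures (NS) had been kept for 6 days in a neural induction medium, named RHA-B in the protocols and RHB-A (TAKARA#Y40001) in the treatment label. NS MD libraries carry the clone labels 09 and 30 and NS R42A libraries A04 and A10, with 2 libraries per clone. Embryonic stem cells (ESC), labelled as untreated, were kept on gelatin in serum with LIF. MD ESC came from clones 45 and 47 in a second series of libraries and from clones 09 and 30 in a first series. R42A ESC came from clones A01 and A02 in the second series and from A04 and A10 in the first, with 3 libraries per ESC clone. The split into series rests on the labels' library numbers, which form consecutive runs, and each series holds its own clones, so clone and series cannot be told apart. All NS libraries form 1 further run, so stage and series cannot be told apart either. Nothing states that the numbered libraries of a clone are separate cultures, and p-values may in part measure technical spread.

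Histone messages of this kind are unusual in that they normally end in a conserved stem-loop and not in a poly(A) tail. The stem-loop-binding protein SLBP and the U7 snRNP cut the message just after this hairpin, and the genes are driven in S phase by NPAT acting under cyclin E and CDK2. In cells that leave the cycle, some of these genes are known to give longer, polyadenylated messages from sites further downstream. H2A, H2B, H3 and H4 form the nucleosome core and H1 binds the linker DNA between nucleosomes.

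The stem-loop is what the members share that the rule did not use. A hairpin of 16 bases was found beginning 22 to 59 bases after the stop codon in 46 of the 67 members, in 8 spellings. The search covered annotated 3′ UTRs only. In 13 members none is annotated, and in Hist1h2af and Hist1h2ah it is 1 and 2 bases long, so no hairpin could be found there. Hist1h2bc, Hist1h2bq, Hist1h2br and Hist2h2be had longest annotated 3′ UTRs of 742 to 2192 bases and no hit. The search took only hairpins of 16 bases with a paired stem beginning with GG and T at set places in the loop. Other forms would have been missed, and the spellings found are limited to this form. A member without a hit is therefore not shown to lack the stem-loop. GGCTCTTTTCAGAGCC was held by 26 members of H1, H2A, H2B and H3 and by no H4 gene, whereas the H4 genes had other stems, most often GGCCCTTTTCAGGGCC, in 7 genes. The sequences below are those of members on which the results turn, with the hairpin in capitals and 7 bases on either side, 5′ to 3′ on the coding strand of mm10.
Hist1h1c: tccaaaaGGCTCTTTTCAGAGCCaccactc
Hist1h2ab: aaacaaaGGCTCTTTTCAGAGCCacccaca
Hist3h2a: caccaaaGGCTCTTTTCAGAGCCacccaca
Hist1h2bj: atccaaaGGCTCTTTTCAGAGCCacgcaca
Hist3h2ba: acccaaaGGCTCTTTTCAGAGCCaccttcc
Hist1h3c: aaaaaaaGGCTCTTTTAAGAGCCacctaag
Hist1h4i: acttaaaGGCCCTTTTTAGGGCCaccacaa
Hist2h4: ccctaacGGCCCTTTTTAGGGCCaaccaca

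The pair of Hist3 genes stood out in neural cells, as described further on, and lie next to each other on chromosome 11, so their promoters are shown as well. Each window runs from 250 bases before to 50 bases after the RefSeq start in GRCm38.p6, on the plus strand, and capitals mark the CCAAT box, the letters TATAAA of the TATA box and the octamer (ATTTGCAT), each read on either strand. Hist3h2a (H2aw in RefSeq) is shown from chr11:58954435-58954734 and Hist3h2ba (H2bu2 in RefSeq) from chr11:58948661-58948960.
Hist3h2a: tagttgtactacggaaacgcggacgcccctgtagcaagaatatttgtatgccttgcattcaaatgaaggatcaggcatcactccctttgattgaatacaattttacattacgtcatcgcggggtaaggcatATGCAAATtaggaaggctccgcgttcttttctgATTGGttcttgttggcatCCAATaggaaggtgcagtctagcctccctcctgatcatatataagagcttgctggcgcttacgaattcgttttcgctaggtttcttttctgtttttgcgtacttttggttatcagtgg
Hist3h2ba: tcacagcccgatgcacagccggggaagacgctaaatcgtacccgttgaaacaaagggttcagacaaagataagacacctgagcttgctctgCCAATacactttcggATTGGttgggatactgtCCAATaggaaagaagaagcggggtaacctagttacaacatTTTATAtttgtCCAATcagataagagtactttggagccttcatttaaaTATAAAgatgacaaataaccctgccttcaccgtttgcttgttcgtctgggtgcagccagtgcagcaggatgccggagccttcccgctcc
Of the 67 members, 61 matched a RefSeq promoter. The octamer, the recognition sequence of the OCT factors, was in 13 of these 61 windows (21.3%), in 7 of 17 H2A and 6 of 16 H2B windows, against 1.74% of 32851 RefSeq promoters. CCAAT was in 52 of 61 (85.3%), with 3 of 12 H4 windows and every window of the other classes, against 37.4% of RefSeq promoters. TATAAA was in 35 of 61 (57.4%), against 13.6%. The windows are not independent, since neighbouring H2A and H2B genes read in opposite directions can share promoter bases. Windows overlap for Hist1h2ae and Hist1h2bg, for Hist1h2ah and Hist1h2bk, and for Hist1h2aa and Hist1h2ba, each with an octamer in both. A motif read on either strand can then be counted once in each window of a pair. These matches describe the windows and were not tied to any change in level.

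The members differ in the length of their annotated 3′ end. The longest 3′ UTR in GENCODE M21 was 200 bases or more in 25 members, called long here (21 of them with the hairpin), and shorter in 42 members, called short (25 with the hairpin), including 13 with no annotated 3′ UTR, where the hairpin could not be found. The border fell between Hist1h2bg at 200 bases and Hist1h2ae at 199. Long members were 4 of 6 H1, 2 of 18 H2A, 8 of 18 H2B, 5 of 12 H3 and 6 of 13 H4 genes. The 67 genes encode 31 different proteins, and 44 share a protein with another member: all 13 H4 genes give 1 protein, 9 H2A genes give another and 7 H3 genes give 1 more. Reads of such near-identical copies may have been divided among them or left out by the authors' counting. Levels of single copies are uncertain to that extent. Fractional counts, the trace of divided reads, occurred in 6 members: Hist1h1e and Hist1h2be, which overlap each other, Hist3h2a, Hist2h2aa1, Hist2h2bb and Hist2h3c1. Each of these 6 overlaps another gene on the same strand. No H4 gene and none of the 9 H2A genes with 1 protein had a fractional count. The counts thus show no trace of reads divided among those copies, and how their shared reads were handled was not tested. Whether counting used strand, and whether polyadenylated RNA was selected, is not given in the sources used here.

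Total counts per library ran from 38699951 to 96424439, with a median of 56223048. Smarce1 RNA, which does not report on a tag that acts on the protein, stood at 286 to 293 CPM in NS MD, 225 to 227 CPM in NS R42A and 97.7 to 129 CPM over the ESC clones. All 6 ESC markers were lower in NS than in ESC in both genotypes and all 6 neural progenitor markers higher, by edgeR's quasi-likelihood test with Benjamini-Hochberg adjustment. In ESC clone A04, libraries 1 and 2 stood apart from library 3 in the members' summed level, which was 35.3, 32.01 and 16.7 CPM. Counts that rest on clone A04 are therefore given with and without libraries 1 and 2 where they move. Which of these libraries stand for the clone is not known. Leaving out library 3 instead kept direction and side of the threshold in 92 alternative values, lost a call in 5 and reversed 0. Levels below are CPM, that is counts scaled to library size with TMM factors, either per library or per clone after summing its libraries; each was scaled within its own table, and the same clone can differ slightly between them.

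The members' levels were first added up. Their summed level per clone was 53.96 and 53.6 CPM in NS MD, 33.1 and 31.3 CPM in NS R42A, 66.4 and 76.4 CPM in second-series MD ESC, 47.2 and 50.7 CPM in second-series R42A ESC, 16.8 and 17.1 CPM in first-series MD ESC, and 26.4 and 18.2 CPM in first-series R42A ESC. The second-series ESC clones were all above the first-series ones. MD clones were above R42A clones in NS and in the second series. In the first series they were below them, by an amount that depends on which libraries of clone A04 are kept. As clone means over libraries, MD was at 0.714 times the R42A level with all libraries. It was at 0.947 times without libraries 1 and 2 of A04, where clone 30 stood at 16.6 and A04 at 16.7 CPM. Those 2 libraries lay close together, so leaving them out keeps only the lowest library of A04. The ratio without library 3 was not taken. In bulk RNA such as this, fewer cells of a type and less RNA per cell cannot be told apart. Single members were mostly scarce: 10 averaged 1 CPM or more over the 12 clone sums and 12 averaged under 0.1 CPM. In counts per kilobase of annotated exon, Hist3h2ba averaged 5.79, Hist1h2ab 3.85, Hist1h4i 2.71, Hist1h2bj 2.38, Hist1h2bc 2.37, Hist1h1c 2.35 and Hist3h2a 1.78 CPM per kb. The divisor is the whole annotated exon length, 3′ UTR included, which is 2146 bases for Hist3h2a and 473 for Hist1h2ab. The order of genes therefore depends on the annotated 3′ end, and which 3′ end the messages used was not tested.

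**Figure D1:**
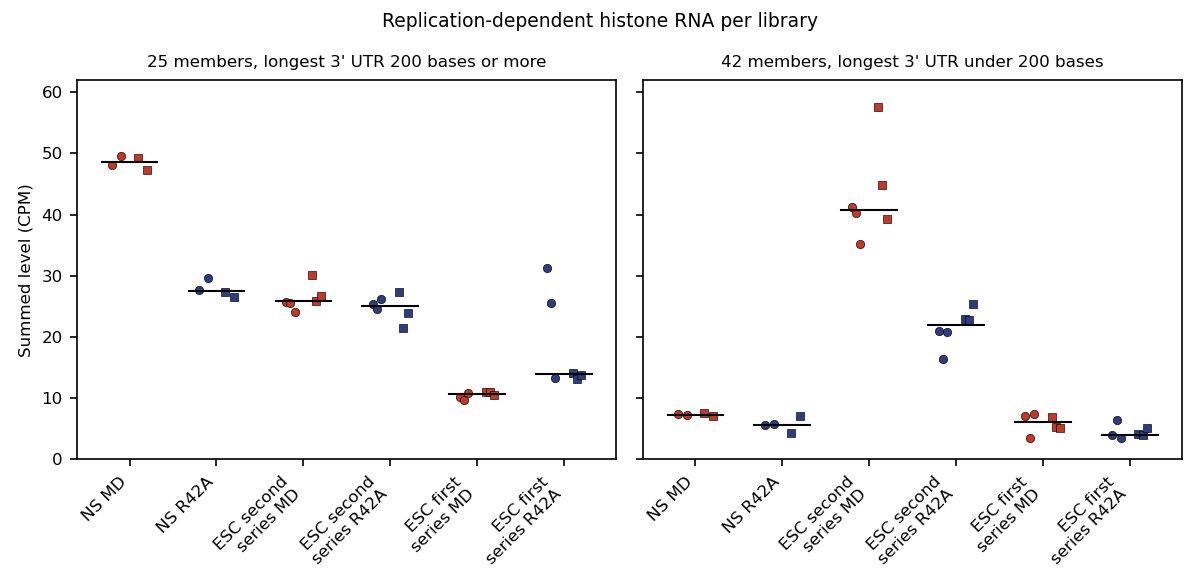
Summed level (CPM) of the 25 members with a long 3′ UTR (left) and the 42 with a short one (right) in each library. Red is MD, blue is R42A, circles are the first and squares the second clone of a pair, and lines are medians over libraries. Short members reach 35.2 to 57.6 CPM in second-series MD ESC and lie under 8 CPM in NS and in first-series ESC, while long members are highest in NS MD, at 47.4 to 49.6 CPM. That order turns on the Hist3 pair: without it the long members average 19.02 CPM over the NS MD clones and 24.3 CPM over the second-series MD ESC clones.

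The first question is how the ESC libraries differ among themselves, since the clones of each genotype are spread over both series; it was added after seeing the data. Histone RNA was far higher in the second series than in the first: 51 of the 61 members tested were called higher and 0 lower (edgeR's quasi-likelihood test on the 8 clone sums with genotype in the model, adjusted p under 0.05), where 24.8% of all 21567 genes tested were called higher and 19.3% lower. The median log2 difference was 2.42 over the 61 members and -0.05 over all genes. By class the median was 0.85 for H1 (5 of 6 called higher), 4.39 for H2A (13 of 14), 1.00 for H2B (12 of 17), 3.08 for H3 (10 of 11) and 3.09 for H4 (11 of 13). Another 6 members did not pass the filter on low counts, and a member that passed it through the second series alone had to differ, so these medians describe the members tested and not all members. In 48 of the 67 members every second-series clone lay above every first-series clone, and in 0 was the reverse seen. Of the 61 members tested this held in 45, where 18% of all genes tested had every second-series clone above and 12.9% every one below.

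By annotated 3′ end, the size of the difference was unequal. Short members summed to 33.5 ± 13.01 CPM in the second series and 5.28 ± 1.01 CPM in the first (SD, n = 4 clones each), a ratio of 6.35. Long members summed to 26.6 ± 1.12 CPM in the second series and 14.4 ± 5.25 CPM in the first, a ratio of 1.86. Of the short members 34 of 36 tested were called higher, with a median log2 difference of 3.29, and of the long ones 17 of 25, with a median of 0.89. In the first series fitted alone, 23 of the 42 short and 24 of the 25 long members passed the count filter. Short members that passed only through the second series had to differ, so these counts and medians do not compare the 2 kinds on equal terms. The sums hold all members. Short members made up 55.7% of the summed histone level in second-series ESC and 26.9% in first-series ESC.

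**Figure D2:**
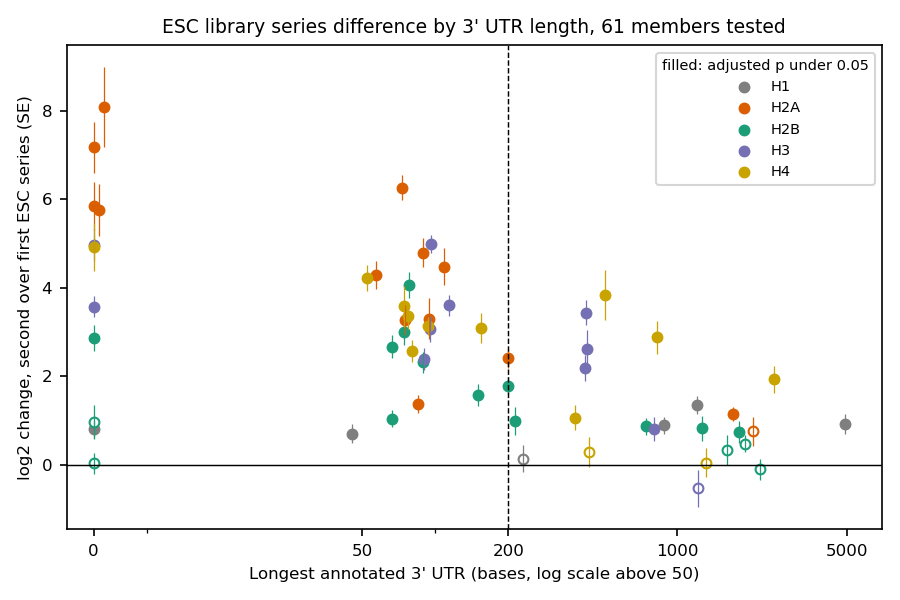
Log2 difference of each tested member between second-series and first-series ESC, set against the length of its longest annotated 3′ UTR. Members with a short 3′ UTR have a median of 3.29 and those with a long one a median of 0.89. Members that passed the count filter only through the second series had to differ, and these are mostly short.

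Hist1h2ab (ENSMUSG00000061615.2; chromosome 13, 23751126 to 23751598 in mm10, plus strand, 1 exon), 1 of the 9 genes of the commonest H2A protein, is given in full as an example. In second-series libraries it ranged from 4.18 to 8.38 CPM in MD (median 5.57) and from 2.39 to 3.26 CPM in R42A (median 2.93). In first-series libraries it ranged from 0 to 0.0735 CPM in MD (median 0.0632) and from 0.0169 to 0.123 CPM in R42A (median 0.0596). No library of either series came near the other series, and the log2 difference was 6.27 ± 0.28 (SE; adjusted p = 6.64e-07, edgeR). When the genes of each identical protein were summed before the fit, this group of 9 H2A genes differed by 3.07 on the log2 scale. Hist1h2ah and Hist1h2ai, named after their values were seen, had 109 and 54 counts in the second series and 0 counts in the first, at least 54.5-fold and 27.0-fold higher against 3 counts over the first-series clones.

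Among H3 genes, which encode a core histone, Hist1h3c (ENSMUSG00000069310.4; chromosome 13, 23744973 to 23745602, minus strand) ranged from 2.68 to 5.001 CPM in second-series MD libraries (median 3.08) and from 0.658 to 1.49 CPM in second-series R42A libraries (median 1.09). Its first-series range was 0.127 to 0.322 CPM in MD (median 0.254) and 0.0169 to 0.261 CPM in R42A (median 0.0944). Every second-series library was above every first-series one, by 3.61 ± 0.24 (SE) on the log2 scale (adjusted p = 5.00e-06, edgeR). Among H4 genes, Hist1h4d (log2 difference 2.89 ± 0.37) and Hist1h4h (3.14 ± 0.20) rose, and Hist1h4i, a long member, rose by 1.07 ± 0.29, a call lost without clone 09 (adjusted p = 0.0526). Among linker genes, Hist1h1c rose by 0.89 ± 0.19 and Hist1h1d by 0.93 ± 0.22. Hist2h2be, an H2B gene with an annotated 3′ UTR of 2192 bases and no hairpin found, was not called (log2 difference -0.10 ± 0.24, adjusted p = 0.759), nor was Hist2h3c1 (-0.53 ± 0.42, adjusted p = 0.336).

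Other RNAs without a regular poly(A) tail were looked at beside this difference. Of 14 matched genes of a list of such RNAs (among them Rn7sk, Rmrp and Terc), 7 were tested, 4 were called higher in the second series and 0 lower, and the list summed to 6.48 to 9.68 CPM in second-series clones and 4.12 to 7.38 CPM in first-series ones. Small nuclear RNA genes summed to 0.468 times and small nucleolar RNA genes to 0.844 times their first-series level. The small nuclear RNA sum was uneven in the first series, at 8.32 CPM in library 3 of clone 09 and 5.80 CPM in library 2 of clone 30. Its library medians were 2.40 CPM in MD and 2.15 CPM in R42A there, against 1.557 and 1.535 CPM in the second series. S phase genes, 23 in number, had 11 called higher and 8 lower (24.8% and 19.3% of all genes), with a median log2 difference of 0.03. The part of RNA selection and of the cell cycle in the members' difference was not tested.

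**Figure D3:**
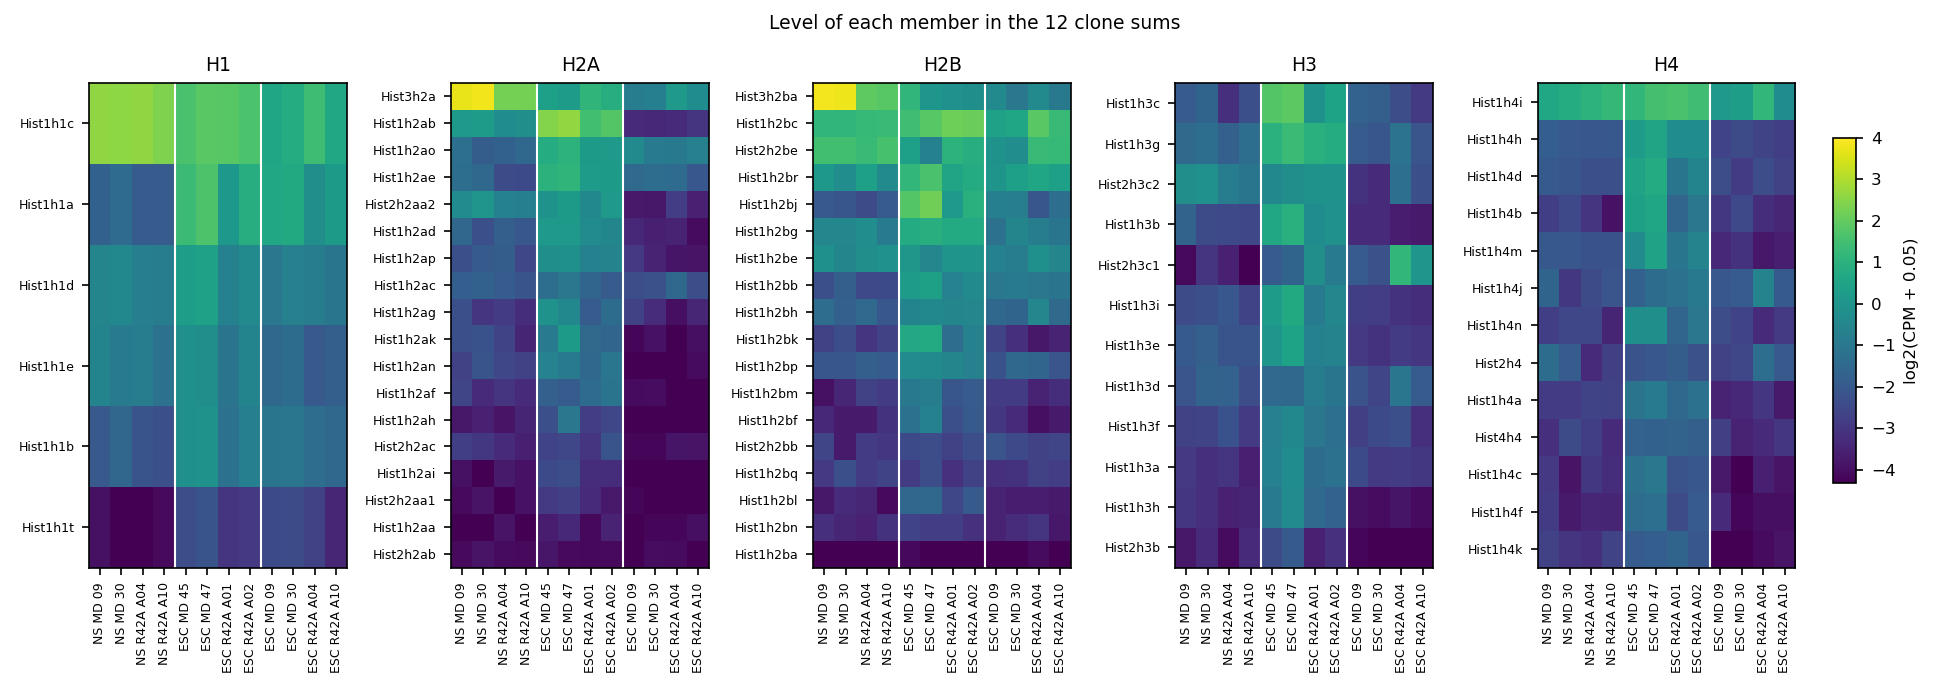
Level of each of the 67 members in each of the 12 clone sums, ordered by histone class, on a log2 scale of CPM. In 48 of the 67 members (45 of the 61 tested) every second-series ESC clone lies above every first-series one, as in 18% of all genes tested, and the NS MD clones are brightest at Hist3h2a and Hist3h2ba.

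The second question is whether MD and R42A ESC differed, with the series held in the model. Of the 61 members tested, 16 were called higher in MD than in R42A and 5 lower, where 17.1% of all genes were called higher and 19.4% lower. The median log2 change was 0.52 over the members tested and -0.03 over all genes. By class, 4 of 6 H1 genes were called higher and 0 lower, 2 of 14 H2A higher and 1 lower, 4 of 17 H2B higher and 2 lower, 3 of 11 H3 higher and 2 lower, and 3 of 13 H4 higher and 0 lower. By 3′ end, 14 of 36 short members were called higher and 0 lower (median 0.66), and 2 of 25 long members higher and 5 lower (median -0.08). Clone sums of the 2 genotypes did not overlap, over both series together, in 1 member with MD above (Hist1h1t) and in 2 with MD below (Hist2h2be and Hist2h3c1), all 3 tested, where 10.8% of all genes tested had MD above and 10.2% MD below. Mesenchyme markers, of which 4 of 6 were tested, were also called higher in MD ESC in all 4 and summed to 49.3 to 89.8 CPM in MD clones and 3.46 to 19.4 CPM in R42A clones; 5 of 6 ESC markers were called lower in MD and 0 higher. Their part in the members' changes was not tested.

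The H1 gene Hist1h1a (ENSMUSG00000049539.3; chromosome 13, 23763666 to 23764406, plus strand), the linker histone known from dividing and early embryonic cells, ranged from 2.24 to 3.72 CPM in MD libraries of the second series (median 2.54) and from 0.714 to 1.98 CPM in R42A libraries (median 1.36). In the first series it ranged from 1.02 to 1.87 CPM in MD (median 1.63) and from 0.552 to 1.26 CPM in R42A (median 1.06). The genotypes were apart in the second series and overlapped in the first, and the log2 change was 0.85 ± 0.21 (SE; adjusted p = 0.01201, edgeR). Hist1h3c was higher in MD by 1.41 ± 0.23 (adjusted p = 0.00170), on the library values given above, but its group of 7 H3 genes with 1 protein, summed, changed by 0.28 (adjusted p = 0.495). Hist1h2bj, an H2B gene with a short 3′ end, ranged from 3.12 to 5.51 CPM in MD libraries of the second series (median 3.56) and from 0.808 to 2.14 CPM in R42A libraries (median 1.36). In the first series it ranged from 0.165 to 0.721 CPM in MD (median 0.549) and from 0.101 to 0.549 CPM in R42A (median 0.248). The genotypes again overlapped only in the first series, and the log2 change over both was 1.23 ± 0.26 (adjusted p = 0.00624).

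All 5 members called lower in MD were long. Hist2h2be (ENSMUSG00000068854.7; chromosome 3, 96221119 to 96223738, plus strand) ranged from 0.418 to 1.49 CPM in second-series MD libraries (median 0.884) and from 1.35 to 2.41 CPM in second-series R42A libraries (median 1.79). In the first series it ranged from 0.685 to 1.09 CPM in MD (median 0.824) and from 1.57 to 3.28 CPM in R42A (median 2.37). MD medians were below R42A medians in both series, with no overlap of libraries in the first, and the log2 change was -1.25 ± 0.24 (SE; adjusted p = 0.00387, edgeR). Hist2h3c1 (ENSMUSG00000093769.4; chromosome 3, 96246685 to 96248509, plus strand), an H3 gene that overlaps Gm20634 on the same strand, changed by -2.31 ± 0.43 (adjusted p = 0.00357). It ranged from 0.167 to 0.406 CPM in second-series MD libraries (median 0.203) and from 0.283 to 1.11 CPM in second-series R42A libraries (median 0.595), and from 0.0559 to 0.267 CPM in first-series MD libraries (median 0.199) and from 0.856 to 4.64 CPM in first-series R42A libraries (median 1.03). Its highest values came from clone A04, whose libraries held 4.64, 1.99 and 0.856 CPM. Hist1h2bc, whose gene has a second exon in the annotation, changed by -0.83 ± 0.19 (adjusted p = 0.00951) and Hist3h2a by -0.76 ± 0.15 (adjusted p = 0.00546). On chromosome 11, which carries Hist3h2a, the other 1591 genes tested had a median log2 change of 0.45, and with each chromosome scaled separately Hist3h2a changed by -1.22.

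The same comparison was made within each ESC series. In the second series alone, 23 of 64 members tested were called higher in MD and 1 lower (12.5% and 10.7% of all genes). In the first series alone, 0 of 47 were called higher and 2 lower (4.56% and 3.27% of all genes), and 11 members had an unadjusted p under 0.05. The summed level was 1.46 times as high in MD as in R42A in the second series, and 0.761 times in the first, where R42A clone A04 was the highest and the difference shrank without its libraries 1 and 2, as given above. The short members summed to 44.3 ± 5.54 CPM in MD and 22.7 ± 3.37 CPM in R42A in the second series, and to 6.15 ± 0.22 CPM in MD and 4.42 ± 0.07 CPM in R42A in the first (SD, n = 2 clones each), so the MD clones were above the R42A clones in both, while single libraries overlapped in the first. The long members summed to 27.1 ± 1.53 CPM in MD and 26.2 ± 0.85 CPM in R42A in the second series, and to 10.8 ± 0.45 CPM in MD and 17.9 ± 5.69 CPM in R42A in the first. As clone means over libraries, the first-series ratio of MD to R42A was 0.569 for the long members and 1.31 for the short ones, and 0.783 and 1.51 without libraries 1 and 2 of clone A04. A test of the difference between the series called 0 of 21567 genes, members included, at an adjusted p under 0.05 in edgeR, with 644 genes (2.99%) and 9 members at an unadjusted p under 0.05; DESeq2 called 7 genes and 0 members. Without libraries 1 and 2 of clone A04, 20 members were called higher and 5 lower over both series.

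**Figure D4:**
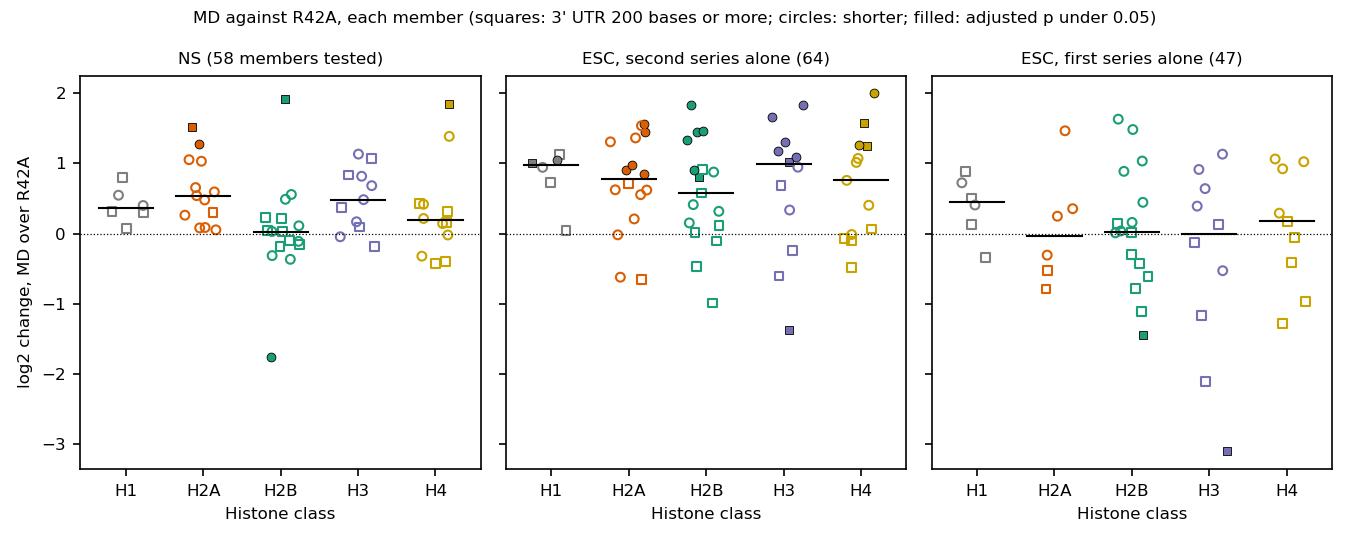
Log2 change of MD against R42A for each tested member, by histone class, in NS (left), second-series ESC alone (middle) and first-series ESC alone (right). Squares are long and circles short members, filled marks were called and lines are class medians; 5 members are called in NS, 24 in the second series and 2 in the first.

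The third question is whether the genotypes differed after neural induction. Few members did: of 58 tested, 4 were called higher in MD than in R42A and 1 lower, where 17.4% of all 23844 genes were called higher and 16.3% lower. The members' shares lie below both of these. The median log2 change was 0.28 over the members tested and 0.00 over all genes. Clone sums did not overlap in 22 members with MD above and in 5 with MD below of the 58 tested, where 38.9% of all genes tested had MD above and 37.1% MD below, so the count above is near that of all genes. The members' summed level averaged 53.8 ± 0.25 CPM over the MD clones, against 32.2 ± 1.25 CPM over the R42A clones (SD, n = 2 clones each), a ratio of 1.67. Without Hist3h2a and Hist3h2ba the ratio was 1.09, at 26.3 and 25.9 CPM in MD clones and 24.6 and 23.05 CPM in R42A clones. In H1, H3 and H4 the class sums were 7.79 ± 0.03, 2.55 ± 0.16 and 3.29 ± 0.14 CPM in MD, against 7.04 ± 0.79, 1.79 ± 0.14 and 3.42 ± 0.13 CPM in R42A.

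Hist3h2a (ENSMUSG00000078851.4; chromosome 11, 58954685 to 58956830, plus strand, 1 exon with an annotated 3′ UTR of 1700 bases), which encodes an H2A, had 13.3, 14.3, 14.4 and 14.9 CPM in the 4 NS MD libraries, against 4.43, 5.28, 5.10 and 4.68 CPM in the 4 NS R42A libraries. Every MD library was above every R42A library, and the log2 change was 1.52 ± 0.15 (SE; adjusted p = 0.000542, edgeR). Its neighbour Hist3h2ba (ENSMUSG00000056895.4; 58948920 to 58949533, plus strand, 1 exon with a 3′ UTR of 213 bases), which encodes an H2B, had 14.5, 15.5, 14.7 and 13.8 CPM in NS MD, against 3.86, 3.96, 3.85 and 3.55 CPM in NS R42A. These groups did not overlap either, and the log2 change was 1.93 ± 0.25 (adjusted p = 0.00157). Together the pair made up 51.5% of the summed histone level in NS MD and 26.0% in NS R42A. Both have the canonical hairpin printed above, and their promoters are among those that hold CCAAT.

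Several other measures were set beside the Hist3 pair. The other 1668 chromosome 11 genes tested had a median log2 change of 0.47 in NS, against -0.03 for genes elsewhere. With each chromosome scaled separately, the changes were 1.08 for Hist3h2a (adjusted p = 0.00366) and 1.48 for Hist3h2ba (adjusted p = 0.00574), so both were called within their chromosome. Trim17, which overlaps Hist3h2a on the same strand, averaged 0.416 CPM. All 6 neuron markers were called higher in NS MD, and their summed level was 1766 to 1807 CPM in NS MD, 664 to 685 CPM in NS R42A and 299 to 485 CPM in ESC, with 0 of the 6 at 0. Endoderm markers summed to 59.0 to 63.2 CPM in NS MD and 103 to 119 CPM in NS R42A, and mesenchyme markers to 73.3 to 75.2 CPM in NS MD and 196 to 206 CPM in NS R42A. Gene by gene, 0 of 6 endoderm markers were called higher in NS MD and 2 lower. Of the 6 mesenchyme markers, 3 were called higher and 2 lower, with a median log2 change of 0.73, so their sum does not speak for each of them. The list of RNAs without a regular poly(A) tail summed to 15.1 to 16.1 CPM in NS MD and 7.66 to 9.17 CPM in NS R42A, with 2 of 8 tested called higher and 1 lower. Neural progenitor markers summed to 894 CPM in both NS MD clones and to 1086 and 1102 CPM in NS R42A. Of these 6 markers 0 were called higher in NS MD and 1 lower, with a median log2 change of -0.23. ESC markers summed to 35.1 to 42.3 CPM in NS MD and 28.7 to 29.8 CPM in NS R42A, with 4 of 6 called higher and 0 lower (median 0.58). The 23 S phase genes had 2 called higher in NS MD and 15 lower (17.4% and 16.3% of all genes). The part of cell composition and of RNA selection in the Hist3 result was not tested.

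The other 3 calls in NS were of scarce members. Hist2h4, an H4 gene, had 0.389, 0.305, 0.282 and 0.1503 CPM in NS MD, against 0.0189, 0.0854, 0.143 and 0.0552 CPM in NS R42A, so that each MD library was above each R42A library; the log2 change was 1.85 ± 0.48 (adjusted p = 0.0237, edgeR), a call lost without clone 09 (adjusted p = 0.226) or clone 30 (adjusted p = 0.113). Summed with the other genes of the H4 protein it changed by -0.07 (adjusted p = 0.904). Hist1h2ae and Hist1h2bm, named here after their values were seen, changed by 1.28 ± 0.35 (adjusted p = 0.0288) and by -1.76 ± 0.55 (adjusted p = 0.0461). Hist1h2bm had 0 to 0.0469 CPM in NS MD and 0.0920 to 0.120 CPM in NS R42A, a few reads per library. Without clone 09, 2 members were called higher and 0 lower, and without clone 30 the counts were again 2 and 0. Without clone A04, 7 were higher and 1 lower, and without clone A10, 5 and 0.

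**Figure D5:**
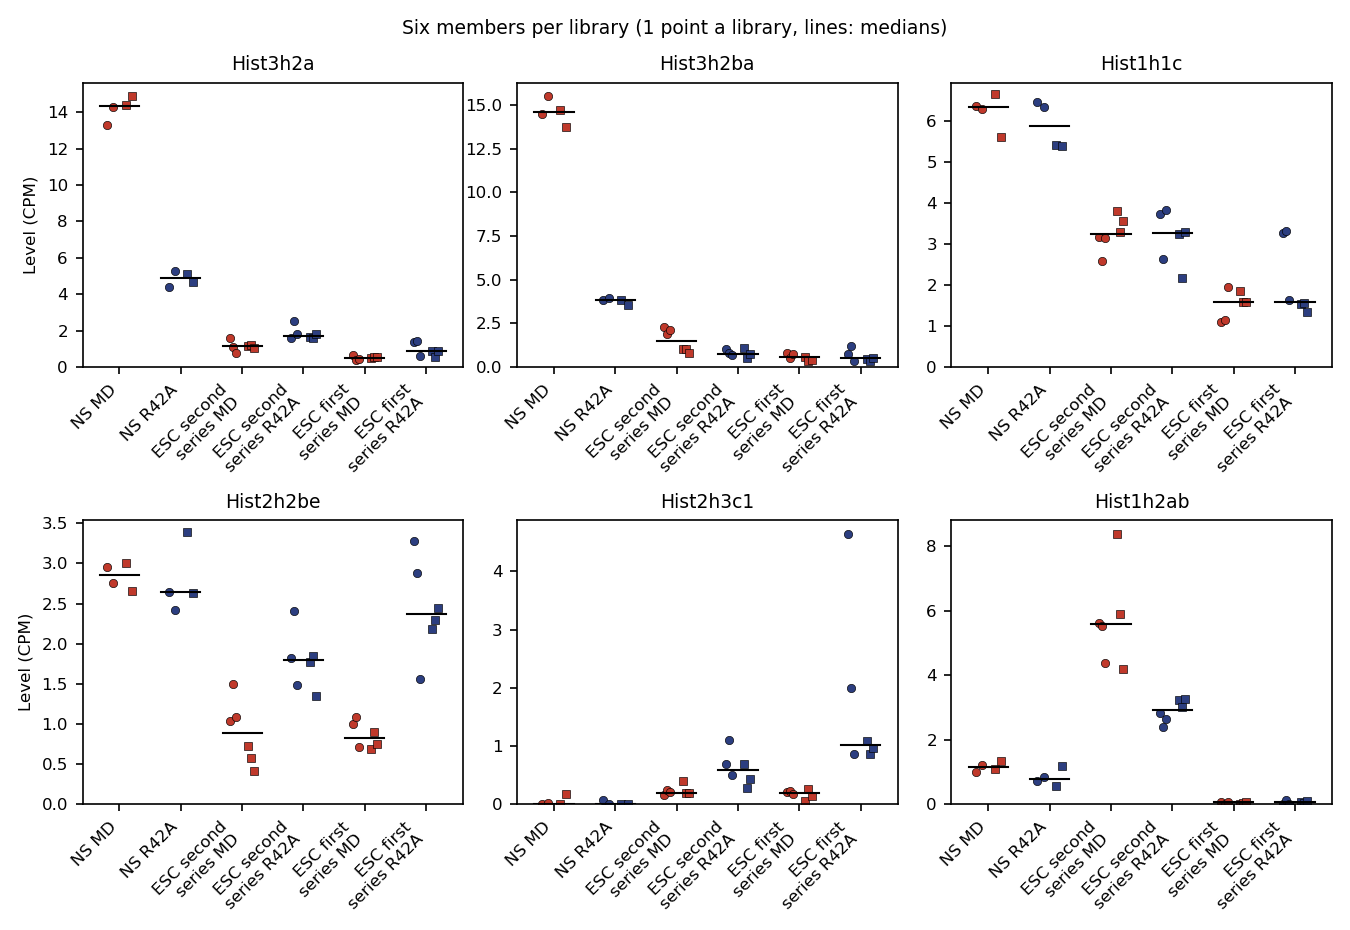
Level (CPM) of 6 members in each library, with lines at the median over libraries. Hist3h2a and Hist3h2ba sit above 13 CPM in NS MD and between 3.55 and 5.28 CPM in NS R42A. Hist1h2ab lies between 2.39 and 8.38 CPM in second-series ESC and near 0 in first-series ESC. Red is MD, blue is R42A, circles are the first and squares the second clone of a pair.

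The fourth question is how neural cells differed from ESC, and here the answer depended on the ESC series used. Against the first-series ESC clones of the same labels, 22 of 58 members were called higher and 8 lower in MD (40.3% and 41% of all genes), and 18 higher and 8 lower in R42A (37.9% and 40.4% of all genes). Against the second-series ESC clones, an alternative added after seeing the data, 4 of 64 were called higher and 49 lower in MD (40.2% and 41.7% of all genes), and 3 higher and 46 lower in R42A (39.5% and 41.1% of all genes). Counts against the first series moved with single clones. In MD they were 12 higher and 3 lower without clone 09, and 13 and 2 without clone 30; in R42A they were 16 and 4 without clone A04, and 15 and 10 without clone A10. In each genotype 13 of 58 members were called higher against the first series and lower against the second, a pattern seen in 1.99% of all genes tested against both series in MD and in 2.34% in R42A. The 2 tests share the NS clones. The members described next were called in the same direction against both series, except where said. In MD 4 were higher against both (Hist1h1c, Hist2h2be, Hist3h2a and Hist3h2ba) and 8 lower, where 35.3% and 35.5% of all genes were. In R42A 3 were higher against both (the same without Hist2h2be) and 8 lower, where 33% and 34.3% of all genes were. S phase genes and small nucleolar RNA genes moved with the stage. Of the 23 S phase genes, 0 were called higher and 16 lower in NS MD and 1 higher and 15 lower in NS R42A against first-series ESC, and 1 and 18 in MD and 2 and 18 in R42A against second-series ESC. Small nucleolar RNA genes summed to 0.232 times (MD) and 0.241 times (R42A) their first-series ESC level, and to 0.280 and 0.281 times their second-series level. Their part in the members' differences was not tested.

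The linker histone gene Hist1h1c (ENSMUSG00000036181.2; chromosome 13, 23738808 to 23740367, plus strand) was higher in neural cells than in ESC in both genotypes. It had 6.35, 6.30, 6.65 and 5.61 CPM in NS MD libraries, against 2.59 to 3.80 CPM in second-series MD ESC (median 3.24) and 1.10 to 1.96 CPM in first-series MD ESC (median 1.58). In R42A it had 6.45, 6.34, 5.42 and 5.39 CPM in NS libraries, against 2.17 to 3.82 CPM in second-series ESC (median 3.26) and 1.34 to 3.33 CPM in first-series ESC (median 1.60). Every NS library was above every ESC library of its genotype. The log2 difference from first-series ESC was 1.91 ± 0.25 in MD (adjusted p = 0.000294, edgeR) and 1.47 ± 0.25 in R42A (adjusted p = 0.00118), and from second-series ESC 0.89 and 0.85. Hist1h1a went the other way. It had 0.296, 0.229, 0.344 and 0.322 CPM in NS MD and 0.208, 0.239, 0.158 and 0.295 CPM in NS R42A, all below every ESC library of their genotype, and the log2 differences from first-series ESC were -2.47 ± 0.24 in MD (adjusted p = 4.63e-05, edgeR) and -2.17 ± 0.24 in R42A (adjusted p = 0.000123).

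The Hist3 pair was higher in NS in both genotypes. Hist3h2a libraries of ESC ranged from 0.781 to 1.60 CPM in second-series MD (median 1.15) and from 0.413 to 0.647 CPM in first-series MD (median 0.520), far under the NS MD values above, and the log2 difference from first-series ESC was 4.67 ± 0.18 (adjusted p = 4.48e-07, edgeR). In R42A its ESC range was 1.59 to 2.56 CPM in the second series (median 1.73) and 0.573 to 1.44 CPM in the first (median 0.883), and the difference was 2.34 ± 0.16 (adjusted p = 9.00e-06). Hist3h2ba ranged from 0.792 to 2.29 CPM in second-series MD ESC (median 1.48) and from 0.338 to 0.824 CPM in first-series MD ESC (median 0.558). Its differences from first-series ESC were 4.55 ± 0.29 in MD (adjusted p = 5.12e-06) and 2.63 ± 0.27 in R42A (adjusted p = 7.77e-05). Against second-series ESC the differences for Hist3h2a were 3.54 in MD and 1.33 in R42A, and those for Hist3h2ba 3.19 in MD and 2.16 in R42A. Long members, the Hist3 pair among them, made up 86.9% of the histone level in NS MD and 83.2% in NS R42A, against 37.9% and 53.5% in second-series MD and R42A ESC and 63.8% and 80.2% in first-series MD and R42A ESC. Without the pair, the other 23 long members made up 72.9% of the remaining level in NS MD and 77.3% in NS R42A, against 35.4% and 50.7% in second-series MD and R42A ESC and 61.2% and 78.8% in first-series MD and R42A ESC.

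Hist2h2be had 2.96, 2.76, 3.002 and 2.66 CPM in NS MD and 2.65, 2.43, 3.39 and 2.63 CPM in NS R42A. NS MD libraries were all above the MD ESC libraries given above (log2 difference from first-series ESC 1.67 ± 0.16, adjusted p = 4.38e-05, edgeR), and in R42A the difference was 0.17 ± 0.15 (adjusted p = 0.335). Hist2h3c1 fell to between 0 and 0.172 CPM in NS MD libraries and to between 0 and 0.0756 CPM in NS R42A libraries, with log2 differences from first-series ESC of -2.33 ± 0.92 (adjusted p = 0.0475) in MD and -6.52 ± 0.94 (adjusted p = 0.000487) in R42A. Both estimates rest on few reads. The MD call was lost without clone 09 (-1.19, adjusted p = 0.423) and without clone 30 (-4.70, adjusted p = 0.0658), and the R42A value ran from -10.3 to -6.00 when clones were left out in turn. Hist1h2ab, in contrast to all of these, had 1.01 to 1.35 CPM in NS MD and 0.555 to 1.18 CPM in NS R42A, between the second-series and first-series ESC ranges of both genotypes.

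The MD effect itself was set against stage in a test of the interaction. Of 58 members tested, 5 had a higher MD effect in NS than in first-series ESC and 1 a lower one, where 11.9% and 11.1% of all genes did. The 5 were Hist2h4 (3.15 ± 0.64, adjusted p = 0.0135), Hist2h3c2 (2.97 ± 0.59, adjusted p = 0.0130), Hist3h2a (2.34 ± 0.23, adjusted p = 0.00104), Hist3h2ba (1.92 ± 0.37, adjusted p = 0.0115) and Hist2h2be (1.497 ± 0.22, adjusted p = 0.00416; log2 with SE, edgeR's quasi-likelihood test). The 1 was Hist1h2bm (-2.63 ± 0.71, adjusted p = 0.0375). All 5 are long members of the Hist2 or Hist3 clusters, and none of the 48 tested Hist1 members had a called higher effect. With clone 09 or clone 30 left out, 0 members were called in either direction; MD then rests on 1 clone per stage, whose lone sum is assumed to vary like the other groups. Without clone A10, 10 were higher and 1 lower. Against second-series ESC, 3 were higher and 1 lower (11.1% and 12.3% of all genes). With the clone label as a block, 5 were higher and 0 lower.

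The remaining Hist2 and Hist4 members and the testis genes were low. Hist2h2aa2 and Hist2h2aa1 encode the same H2A. Hist2h2aa2 had 0.654 to 1.03 CPM in NS MD, 0.491 to 0.663 CPM in NS R42A, 0.703 to 1.24 CPM in second-series MD ESC and 0.5261 to 1.13 CPM in second-series R42A ESC, but at most 0.0441 and 0.153 CPM in first-series MD and R42A ESC. Hist2h2aa1 did not pass 0.171 CPM in any library, and Hist2h2ab not 0.0313 CPM. The H3 gene Hist2h3c2 rose in the second series against the first (2.63 ± 0.42, adjusted p = 0.000988, edgeR), and Hist2h3b, of the same protein, was at 0.299 CPM at most. Hist2h2ac, an H2A gene, and Hist2h2bb, an H2B gene, stayed at or under 0.225 and 0.260 CPM in every library. Hist4h4 was at 0.0140 to 0.360 CPM throughout and higher in the second series (1.93 ± 0.30, adjusted p = 0.000887). The testis H1 gene Hist1h1t was at 0.0217 to 0.256 CPM in ESC libraries and was called higher in MD ESC (0.97 ± 0.31, adjusted p = 0.0361), a call lost in 11 of the alternatives tried. The testis genes Hist1h2aa and Hist1h2ba reached at most 0.0900 and 0.0180 CPM, and in the NS MD libraries both had 0 counts, which allows up to 0.0283 CPM in a clone sum by counting error alone.

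Genes that make and handle these messages were set beside the members. Slbp, the stem-loop-binding protein, was at 129 ± 1.93 CPM in NS MD and 141 ± 3.81 CPM in NS R42A (SD, n = 2 clones each), and at 139 ± 3.54 CPM in MD ESC and 147 ± 3.62 CPM in R42A ESC (SD, n = 4), and it was called in 0 of 7 comparisons in edgeR. Npat was lower in second-series than in first-series ESC, at 71.9 ± 7.29 and 97.8 ± 5.96 CPM (SD, n = 4; log2 difference -0.42 ± 0.07, adjusted p = 0.000916), while the members were higher there. Of 23 genes of histone transcription, 3′ processing and decay, all tested, 6 were called higher and 10 lower in the second series (24.8% and 19.3% of all genes). In MD ESC against R42A ESC, 4 were higher and 4 lower (17.1% and 19.4% of all genes). In NS MD against NS R42A 5 were higher and 7 lower (17.4% and 16.3% of all genes). Lsm11, a subunit of the U7 snRNP that lies on chromosome 11, was higher in MD in both stages, at 48.4 ± 0.20 CPM in NS MD against 25.7 ± 0.81 CPM in NS R42A (log2 change 0.90 ± 0.09, adjusted p = 0.000531) and at 36.9 ± 3.26 CPM in MD ESC against 20.6 ± 1.40 CPM in R42A ESC (0.83 ± 0.07, adjusted p = 9.82e-05). Chromosome 11 genes other than the members had median log2 changes of 0.47 in NS and 0.45 in ESC. Over the alternatives tried, Lsm11 changed by as little as 0.46 in NS and 0.37 in ESC. Its partner Lsm10, on chromosome 4, was higher in NS MD (0.47 ± 0.11, adjusted p = 0.0142), a call lost without clone 09 (adjusted p = 0.206) or clone 30 (adjusted p = 0.119). Cyclin E1 (Ccne1) was lower in NS MD than in NS R42A, at 38.9 ± 0.13 against 61.3 ± 0.83 CPM (-0.67 ± 0.04, adjusted p = 0.000123).

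Against first-series ESC, 6 of the 23 genes were called higher and 13 lower in NS MD (40.3% and 41% of all genes). In NS R42A 5 were higher and 10 lower (37.9% and 40.4% of all genes), so the R42A count of lower genes is near that share. Zfp473, which binds the U7 complex, and Ccne1 fell by 2.90 ± 0.08 and 2.88 ± 0.04 on the log2 scale in MD (adjusted p = 9.86e-08 and 2.13e-08, edgeR). Upf1, which acts in the decay of histone messages, was higher in the second series (0.81 ± 0.05, adjusted p = 2.86e-06) and lower in NS MD than in NS R42A (-0.63 ± 0.06, adjusted p = 0.000366). Of 11 histone chaperone genes, 0 were called higher and 6 lower in NS MD against NS R42A, 0 higher and 2 lower in MD ESC against R42A ESC, and 4 higher and 5 lower in second-series against first-series ESC. Against first-series ESC, 1 was higher and 7 lower in NS MD and 2 higher and 7 lower in NS R42A. All genes were called at the shares given above for each comparison. The acetyltransferase gene Hat1, which modifies newly made H4, stood at 109 ± 5.94 CPM in NS MD and 118 ± 4.71 CPM in NS R42A, against 427 ± 6.55 CPM in first-series MD ESC and 400.3 ± 37.1 CPM in first-series R42A ESC (SD, n = 2 clones each).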

How the data were processed

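RNA-seq was deposited for 32 libraries of 12 clones and stages, as RSEM expected counts per gene. Per the submitters' processing notes, the authors used Trim Galore 0.60, STAR 2.7.1a, RSEM 1.3.0 and mm10; per the labels, libraries came from total RNA with the KAPA Hyper Prep kit. Expected counts were rounded and summed per clone and stage; 92 spike-in entries, with a total of 0, were left out. Members and gene lists were chosen with earlier results of these data known. The text names the 3 most abundant members of each class, up to 6 called members per direction and comparison averaging at least 1 CPM, the testis genes and all Hist2, Hist3 and Hist4 members; for the pathway, Slbp, Npat and up to 3 called genes per direction. edgeR 4.0.16 was fitted over all genes (TMM, filterByExpr with a minimum count of 10, robust quasi-likelihood, Benjamini-Hochberg, called at an adjusted p under 0.05): the ESC fit used 8 clone sums with series and genotype, the stage fit 8 clone sums in 4 groups. The ESC fit and the stage fit were tested on simulated data, in the comparison of MD with R42A only. Limits set where a count was 0 cover counting error only. Each SD was taken over clones, and each SE came from the fit. Clone labels shared by NS and first-series ESC were taken as the same cell line; deviations of sums with the same label correlated at 0.016 (MD) and -0.108 (R42A). The comparison of series, second-series ESC in the stage fit, leaving out A04 libraries and crossed clone labels were added after seeing the data. DESeq2 1.42.0 was an alternative.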

Additional observations from a re-analysis of the deposited data

Results flagged for a closer look

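The difference in the MD effect between NS and first-series ESC passed edgeR's quasi-likelihood test of the interaction for 6 members: -2.63 on the log2 scale for Hist1h2bm, 1.497 for Hist2h2be, 1.92 for Hist3h2ba, 2.34 for Hist3h2a, 2.97 for Hist2h3c2 and 3.15 for Hist2h4. The Hist2h2be effect was 0.02 in NS and -1.45 in first-series ESC fitted alone. For Hist1h2bm, library levels in NS were at most 0.120 CPM.

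Hist1h2ba, a testis H2B gene, had values in 1 sample far from the others of its group: 0.00696 CPM in ESC MD clone 45 and 0.00933 CPM in ESC R42A clone A04, with 0 in the other clones of each group. Both lie under the limit that a count of 0 allows. These were 2 of 68 group checks, and chance flags about 5% of groups.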

How the results depend on the processing

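Of 1603 alternative values, 1426 kept their direction and side of the threshold, 159 lost a call and 18 reversed. Without the series term, ESC MD against R42A gave 3084 genes, 0 members higher and 2 lower; the first series alone gave 1769, 0 and 2, and the second alone 4878 and 1 lower. With identical proteins summed, 8 were higher in MD ESC, 24 in the second series, 2 in NS MD, 12 in NS MD against ESC, 9 higher and 5 lower in NS R42A against ESC, and 3 higher in the interaction. The series by genotype test gave 7 genes with DESeq2, 1 with no count filter and 13 over single libraries. NS clone sums alone gave 13643 genes, 10 members higher and 2 lower. The 1 member lower in NS MD and the 1 lower in the interaction became 0 with DESeq2, no count filter, single libraries with or without a replicate block, or libraries 1 and 2 of A04 left out (2633 interaction genes); the first also with each chromosome scaled separately and the second also with the clone-label block. Against second-series ESC, 4 were higher and 49 lower in NS MD, 3 and 46 in NS R42A, and 3 higher in the interaction.

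Library numbers were not taken to pair the libraries, since not every same-numbered pair correlated at over 0.1. Medians were 0.114 in NS (-0.046 to 0.290), 0.323 in second-series ESC (-0.072 to 0.735) and 0.148 in first-series ESC (-0.651 to 0.739), against -0.114, -0.099 and -0.099 for different numbers. With 2 libraries per NS clone, deviations from the clone mean are exact opposites. The NS values for different numbers therefore only mirror those for the same number. With library numbers as a replicate block, 12 members were higher in NS MD and 11 in NS R42A against ESC. The clone-label block, where the clones pair the stages, gave 5 members higher and 0 lower in the interaction and changed no other count of members by over 1.5 times; crossing its R42A pairs gave 5 and 0 as well.

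Leaving out clones gave 5745 to 9329 genes, 11 to 23 higher and 4 to 6 lower for ESC genotype; 7699 to 10922, 45 to 54 and 0 for the series; 1538 to 9967, 2 to 7 and 0 to 1 for NS genotype (lowest without clone 30, and 1600 without clone 09); 14428 to 20978, 12 to 24 and 2 to 8 for NS against ESC in MD; 17072 to 18652, 14 to 16 and 4 to 10 in R42A; and 77 to 8759, 0 to 10 and 0 to 1 for the interaction (77 and 114 without clones 09 and 30).

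Reversed values, whose cause was not tested, were as follows. With identical proteins summed, Hist2h4 was -0.070 in NS genotype and 0.33 in NS R42A against ESC, and Hist1h2ao 1.00 in MD and 0.81 in R42A. Against second-series ESC in MD, Hist1h2bc was -0.48, Hist1h4h -2.53, Hist1h2ab -2.36, Hist2h2aa2 -0.19, Hist2h2ac -0.37, Npat 0.046 and Sympk -0.13; in R42A, Hist1h4h was -1.93, Hist1h2ab -1.88 and Hist2h2aa2 -0.59. With each chromosome scaled separately, MD against R42A was 0.029 for Asf1b, 0.16 for Upf1 and -0.29 for Mif4gd in ESC, and -0.10 for Mif4gd in NS. Depth limits the scarce members: 12 of 67 averaged under 0.1 CPM.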
